A study of Mus musculus with 22 samples.

Results

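Imprinted genes are genes of which mainly the copy from 1 parent is transcribed. The set described here held 42 of the 26182 mouse genes with a curated RefSeq transcript, taken from a fixed list of names, and it fell into 21 clusters on 11 chromosomes. Of these genes, 19 were listed as having their main or an alternative start at a germline differentially methylated region (DMR). Such a region carries DNA methylation on the maternal copy. A further 7 lie in domains governed by a paternally methylated region. The remaining 16 are other genes, among them Zdbf2, which forms a cluster of its own. These classes were set by gene name, so a DMR at a start of a remaining gene can be missed. No measured value was used to choose the genes. Each gene was examined within 5 kb of its most upstream curated transcription start site (TSS) and over its gene region, meaning the gene body joined with that 10 kb window. The 42 windows merged into 38 distinct stretches, since Peg3 and Usp29, Peg10 and Sgce, and other neighbours share theirs, so the genes are not independent of each other.

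The parental methylation marks are laid down in the germ line and have to survive the wave of demethylation in the early embryo. At the methylated copy, the zinc-finger proteins ZFP57 and ZFP445 recruit TRIM28 (KAP1) and the methyltransferase SETDB1, and the histone there carries trimethylated lysine 9 of H3 (H3K9me3). ATRX, a chromatin remodeller that works with the histone chaperone DAXX, is found at heterochromatin and telomeres and has also been described at the methylated copy of imprinted regions. G-quadruplexes (G4) are folded structures that DNA can form where runs of G lie close together.

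The study depleted TERRA, a long noncoding RNA transcribed from subtelomeric DNA into the telomeric repeats, from female hybrid mouse embryonic stem (ES) cells of the CAST/Ei x 129/Sv/Jae background. Cells received antisense locked nucleic acid (LNA) gapmers against TERRA (TERRA KD) or a scramble gapmer (scramble KD) for 12 h, in feeder-conditioned medium after feeder cells had been removed. Peaks of ATRX, H3K9me3 and G4 ChIP-seq and of ATAC-seq, which marks accessible chromatin, were listed separately for 2 replicates of each condition, called scramble 1, scramble 2, TERRA 1 and TERRA 2 below. All cells were of 1 ES line. The study calls its ATRX and G4 ChIP-seq replicates biological, while the labels do not say how the cultures were separated, and the lists do not tell the parental copies apart.

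The lists differed in depth before any gene was considered. ATRX lists rested on 4104486 to 15506154 tags and held 7321 to 41384 peaks, with the most peaks in TERRA 1, the list with the fewest tags. H3K9me3 peaks had a median length of 2404 and 3120 bp in replicate 1 and of 491 and 515 bp in replicate 2. G4 tags ranged from 2961038 to 24588605 and ATAC tags from 5976014 to 7883648. The ATRX and H3K9me3 lists of a condition and replicate have the same input tag count in their headers, so peaks in both are not independent. Both G4 lists of a condition also have the same input tag count, which differs between the conditions. The G4 replicates of a condition are thus not fully independent, and a G4 difference between conditions cannot be told apart from one between inputs. Among ES cell markers, all 7 had an ATAC peak within 5 kb of the TSS in each list, and the strongest at Nanog reached the top 2.13% of the peaks or better in every list. Among 6 fibroblast markers, 5 also had an ATAC peak in each list, Postn had none, and the strongest ATAC peak at Col3a1, a collagen gene, reached the top 62.8% to 91.8%. Nanog and Col3a1 are examples, and ranks of the other markers are not given. The part of feeder cells in the peaks below was not tested.

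H3K9me3 peaks over the imprinted regions formed a few blocks that were present in every library and many that were listed once. When peaks of the 4 lists that lay within 2 kb of each other were joined, 53 blocks overlapped the gene regions, and 6 of them held a peak in all 4 lists, at Igf2, Inpp5f, Peg10, Zim1, Kcnq1ot1 and Gnas. A further 2 blocks were present in 3 lists, 9 in 2 lists and 36 in 1 list, of which 18 were listed in scramble 2 and 17 in TERRA 2. Blocks in all 4 lists were thus 11.3% of those over imprinted regions, against 15.9% of the 71406 blocks joined in the same way over the genome. The 6 blocks held 81.0% of the covered bases in scramble 1, 53.5% in scramble 2, 77.3% in TERRA 1 and 52.8% in TERRA 2. The central 200 bases of the longest stretch that lay inside peaks of all 4 lists are shown for 5 of the 6 blocks because these stretches carry the recurrent mark. They are read from the GRCm38 reference in the direction of the gene's transcription, with TGCCGC, the hexamer that ZFP57 binds when methylated, or its reverse complement GCGGCA in capitals.
Igf2, chr7:142669458-142669657, minus strand: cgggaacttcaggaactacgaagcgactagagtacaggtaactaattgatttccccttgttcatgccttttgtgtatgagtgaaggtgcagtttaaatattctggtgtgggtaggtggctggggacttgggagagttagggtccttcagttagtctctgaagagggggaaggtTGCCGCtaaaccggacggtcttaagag
Inpp5f, chr7:128606552-128606751, plus strand: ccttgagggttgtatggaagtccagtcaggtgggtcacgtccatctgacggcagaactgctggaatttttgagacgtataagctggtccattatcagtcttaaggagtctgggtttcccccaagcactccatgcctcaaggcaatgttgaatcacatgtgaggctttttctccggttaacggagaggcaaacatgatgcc
Peg10, chr6:4755731-4755930, plus strand: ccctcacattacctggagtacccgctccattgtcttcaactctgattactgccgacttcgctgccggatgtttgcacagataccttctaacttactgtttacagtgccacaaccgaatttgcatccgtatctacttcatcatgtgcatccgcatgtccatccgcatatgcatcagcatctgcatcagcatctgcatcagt
Zim1, chr7:6678339-6678538, minus strand: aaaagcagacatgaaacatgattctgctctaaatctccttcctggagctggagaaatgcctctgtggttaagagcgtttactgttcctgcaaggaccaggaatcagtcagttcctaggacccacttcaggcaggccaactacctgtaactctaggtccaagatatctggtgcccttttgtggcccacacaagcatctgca
Kcnq1ot1, chr7:143225398-143225597, minus strand: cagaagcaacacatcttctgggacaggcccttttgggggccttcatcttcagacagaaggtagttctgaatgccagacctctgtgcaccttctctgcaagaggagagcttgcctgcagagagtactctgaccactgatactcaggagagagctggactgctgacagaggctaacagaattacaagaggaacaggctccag
Among these 200-base stretches, the hexamer occurred in that of Igf2. Over the whole blocks it occurred 3 times at Inpp5f, 2 times at Zim1, 1 time each at Igf2, Peg10 and Gnas, and 0 times at Kcnq1ot1. In the central 200 bases of all peaks of an H3K9me3 list, it was found in 2.53% to 3.65%. The counts over whole blocks cannot be set against this share, because the 6 blocks are 4044 to 29722 bases long. Gnas gave no such stretch, because its scramble 2 peak shared no base with the TERRA 2 peak.

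The Igf2 block lay directly upstream of the gene for the fetal growth factor IGF2, at chr7:142667036-142672532, over the antisense transcript Igf2os. In scramble 1 it was a single peak of 5.37 kb with 175 tags and a −log10 p of 18.6. In scramble 2 it consisted of 2 peaks with 13 tags together and a best −log10 p of 4.16. TERRA 1 had 1 peak with 180 tags and a −log10 p of 15.99. TERRA 2 had 2 peaks with 28 tags and a best −log10 p of 11.2. The block thus had the same place in all 4 lists, and its strongest peak ranked within the top 14.5% of each list. Only 15.4% of its bases were soft-masked as repeats in the reference, whereas the central 200 bases of all H3K9me3 peaks were soft-masked over a median of 76.5% to 96.5%, depending on the list.

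The block upstream of Inpp5f, a gene for an inositol phosphatase with an imprinted variant, lay at chr7:128604579-128610021 between -6.79 and -1.34 kb of the TSS. All of its bases were soft-masked repeat and no annotated gene overlapped it. It held 1 peak with 186 tags in scramble 1, 3 peaks with 36 tags in scramble 2, 1 peak with 232 tags in TERRA 1 and 5 peaks with 45 tags in TERRA 2. Its best rank was the top 18.3%, 2.32%, 8.62% and 10.2% of these lists, in the same order. No ATRX peak of any list fell in it. At the downstream start of Inpp5f, at 128688870, no H3K9me3 peak lay within 5 kb in any list.

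Peg10, an imprinted gene derived from a retrotransposon, carried its block in the 3′ part of the gene, at chr6:4751861-4760017, and 3020 of the 8157 bases were protein-coding. The longest stretch covered in all 4 lists, 295 bases, was coding throughout. The block gave 1 peak with a −log10 p of 9.67 in scramble 1, 1 peak with 19.3 in TERRA 1, 2 peaks with a best value of 5.26 in scramble 2 and 2 with 6.19 in TERRA 2. The values of scramble and TERRA lists overlapped. In TERRA 1 alone the peak was wide enough to enter the 5 kb window shared by Peg10 and Sgce, the gene for a sarcoglycan, and both were counted there for that reason.

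Zim1, which encodes a zinc-finger protein, held its block at the 3′ end at chr7:6675695-6680389, 16.04 to 20.7 kb after its TSS. The strongest peaks had a −log10 p of 12.2 in scramble 1, 2.49 in scramble 2, 7.18 in TERRA 1 and 7.42 in TERRA 2. Of its 4695 bases, 1340 were coding and 18.4% were soft-masked. The block over Gnas, the gene for the stimulatory G protein alpha subunit, lay at chr2:174344656-174348699 around the 3′ end, with a −log10 p of 8.66 in scramble 1, 2.28 in scramble 2, 4.99 in TERRA 1 and 2.77 in TERRA 2. The scramble 2 peak started beyond the annotated end of Gnas, so within the gene region itself this block was present in 3 lists.

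The widest block lay inside Kcnq1ot1, the noncoding RNA transcribed from the paternal copy through Kcnq1, whose promoter is the maternally methylated DMR of its cluster. It covered chr7:143216297-143246018, 50.5 to 80.3 kb after the Kcnq1ot1 TSS. Peaks covered 18.3 kb of it in scramble 1, 12.1 kb in scramble 2, 29.4 kb in TERRA 1 and 6.79 kb in TERRA 2. Coverage was thus higher in TERRA KD in replicate 1 and lower in replicate 2. Tags summed to 562 and 1027 in scramble 1 and TERRA 1, and to 168 and 85 in scramble 2 and TERRA 2. At the promoter of Kcnq1ot1, in contrast, no H3K9me3 peak fell within 5 kb of the TSS in any list.

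**Figure D1:**
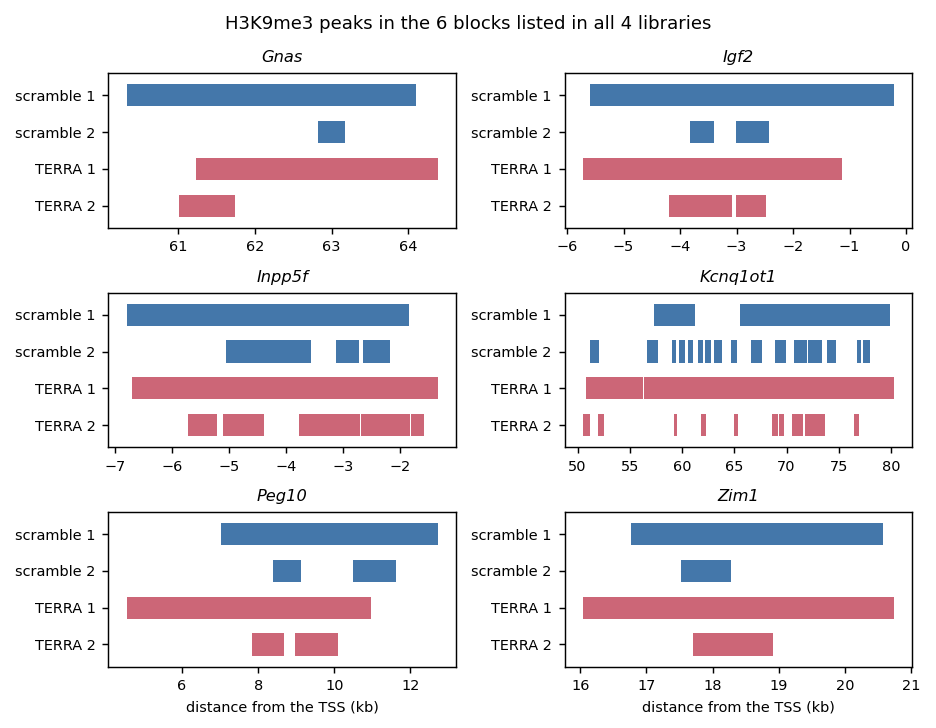
H3K9me3 peaks (bars) in the 6 blocks listed in all 4 libraries, 1 panel per gene, with the distance from the gene's TSS in kb on the x axis (negative is upstream) and the library on the y axis, blue for scramble KD and red for TERRA KD. Replicate 1 peaks are wide and replicate 2 peaks narrow, and the blocks lie in the same places in both conditions except at Gnas, where the scramble 2 and TERRA 2 peaks do not meet.

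Within 5 kb of the TSS, H3K9me3 peaks were found at 3 of 42 imprinted genes in scramble 1, 5 in scramble 2, 7 in TERRA 1 and 4 in TERRA 2. The corresponding shares over all genes were 7.29%, 10.6%, 6.92% and 10.7%. Mean shares were 9.52% ± 3.37 (SD, n = 2) in scramble KD and 13.1% ± 5.05 (SD, n = 2) in TERRA KD, with overlapping values (exact two-sided permutation test, p = 0.667). With 2 libraries against 2, no comparison could give a p below 0.33. Igf2 and Inpp5f had a peak in all 4 lists (2.85% of all genes did), and no imprinted gene had a peak in both lists of a condition and in neither list of the other (0.382% of all genes for TERRA KD and 0.271% for scramble KD).

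Of the 19 germline DMR genes, 14 had no H3K9me3 peak within 5 kb of the TSS in any list, as had 33 of all 42 imprinted genes and 80.8% of all genes. They included Mest, Nnat, Plagl1, Airn, Peg13, Zrsr1, Mcts2, Nap1l5, Grb10 and Slc38a4. These counts use the most upstream start, so they can miss a DMR at an alternative start. The downstream starts of Gnas and Grb10 also had no H3K9me3 peak within 5 kb in any list. Inpp5f had its peaks at the most upstream start and none at its downstream start. Peg3 and Usp29, which start next to each other in opposite directions, shared a weak peak of 38 tags in TERRA 1 and of 6 tags in scramble 2. Snrpn has its most upstream start far from the promoter that carries its DMR. At that promoter, with the start at 60005199 on chromosome 7, no H3K9me3 and no ATRX peak lay within 5 kb, while ATAC peaks numbered 3, 2, 2 and 2 in scramble 1, scramble 2, TERRA 1 and TERRA 2. A place without a peak is one where enrichment was not detectable in that list, and where only 1 copy carries the mark, the methylated and unmethylated copies are counted together.

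Germline DMR promoters that contain the ZFP57 hexamer illustrate this group. Of the 42 genes, 34 had an entry among the RefSeq promoters of GRCm38, which run from 250 bases before to 50 bases after a start, with 51 promoters in all. Cdkn1c, H19, Impact, Kcnk9, Peg10, Peg13, Rtl1 and Sgce had none. TGCCGC on either strand was found in 14 of the 51 promoters, that is 27.5%, against 11.6% of all 32851 promoters. It was in 8 of 26 promoters of germline DMR genes (30.8%) and in 6 of 25 of the other imprinted genes (24%). The median GC content was 57.3% in the imprinted promoters and 52.7% in all promoters. The hexamer contains a CG pair, and the median ratio of observed to expected CG pairs was 0.623 and 0.384. The part of base composition was not tested. Overlapping promoters of a gene, as at Mest, were each counted. Stretches of 150 bases from these promoters are shown for 4 germline DMR genes, for Mest at a start downstream of its first, with the hexamer on either strand in capitals and the sequence in the direction of transcription.
Mest, chr6:30737800-30737949, plus strand: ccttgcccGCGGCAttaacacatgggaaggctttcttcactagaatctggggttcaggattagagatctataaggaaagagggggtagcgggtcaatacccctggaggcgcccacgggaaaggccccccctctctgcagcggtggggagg
Nap1l5, chr6:58907127-58907276, minus strand: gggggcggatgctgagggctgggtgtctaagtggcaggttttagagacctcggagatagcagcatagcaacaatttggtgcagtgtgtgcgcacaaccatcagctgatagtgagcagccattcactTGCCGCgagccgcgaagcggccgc
Plagl1, chr10:13090670-13090819, plus strand: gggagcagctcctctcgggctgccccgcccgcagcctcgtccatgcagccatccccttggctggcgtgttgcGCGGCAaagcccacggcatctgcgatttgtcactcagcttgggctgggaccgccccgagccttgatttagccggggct
Mcts2, chr2:152686898-152687047, plus strand: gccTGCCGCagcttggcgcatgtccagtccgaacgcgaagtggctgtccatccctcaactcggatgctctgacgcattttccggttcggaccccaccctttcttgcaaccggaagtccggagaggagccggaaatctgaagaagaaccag
Each of these 4 genes had an ATAC peak within 5 kb of the TSS in all 4 lists and an H3K9me3 peak in none. Over the whole 10 kb window, the hexamer occurred a median of 5 times at the 19 germline DMR genes, 3 times at the 42 imprinted genes and 1 time over 26166 genes with a window to search. The median ratio of observed to expected CG pairs in these windows was 0.364, 0.331 and 0.275 in that order. A match of these letters is a description of the sequence and says nothing of binding.

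Genes of the paternally methylated domains differed from each other in the H3K9me3 peaks over their regions. Stretches outside the gene regions, and any control region there, were not examined. H19, the noncoding RNA whose upstream control region governs Igf2, had no H3K9me3 peak over its region in any list. Meg3, the maternally expressed RNA of the Dlk1 cluster, had 1 upstream peak in each list of replicate 1, with 45 tags in scramble 1 and 49 in TERRA 1, and none in replicate 2. Rasgrf1, a guanine nucleotide exchange factor gene, had a block 27.4 to 29.7 kb into the gene in scramble 1, TERRA 1 and TERRA 2, with −log10 p values of 2.77, 2.28 and 2.85. A second Rasgrf1 block, 16.99 to 18.5 kb into the gene, had a −log10 p of 2.19 in scramble 1 and 4.73 in TERRA 2. Rtl1 had 2 peaks in TERRA 2 with a best −log10 p of 5.44 and none in the other lists. Dlk1, which encodes a NOTCH-related ligand, and the RNA gene Rian had none.

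H3K9me3 covered 1.89% of the bases of the imprinted gene regions in scramble 1, 1.36% in scramble 2, 2.58% in TERRA 1 and 1.16% in TERRA 2. Peaks covered 3.13%, 1.63%, 3.93% and 1.81% of the genome in the same lists, so each value lay below that of the genome. TERRA KD was above scramble KD by 0.69 percentage points in replicate 1 and differed by -0.20 in replicate 2 (exact two-sided permutation test over both, p = 1). No imprinted gene had an H3K9me3 peak that overlapped an ATAC peak of the same condition and replicate number within 5 kb of the TSS, in any of the 4 pairs of lists. Over all genes, such overlaps occurred at 1.52% in scramble 1, 0.588% in scramble 2, 1.54% in TERRA 1 and 1.01% in TERRA 2, so their absence at imprinted genes was near these shares. Over the whole gene regions, H3K9me3 peaks that overlapped ATAC peaks numbered 1 of 13, 0 of 60, 1 of 13 and 2 of 48 in the same order. For the whole H3K9me3 lists the shares were 13.9%, 4.15%, 20.3% and 6.64%.

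ATRX peaks were few and weak at imprinted genes in scramble KD and more frequent in TERRA KD. Within 5 kb of the TSS, 1 of 42 genes had a peak in scramble 1, 3 in scramble 2, 11 in TERRA 1 and 6 in TERRA 2. The TERRA lists were thus both above the scramble lists, with means of 20.2% ± 8.42 (SD, n = 2) and 4.76% ± 3.37 (SD, n = 2), a difference of 15.5 percentage points (exact two-sided permutation test, p = 0.33, the smallest possible). Over all genes, ATRX shares of 3.83% (scramble 1), 3.98% (scramble 2), 20.7% (TERRA 1) and 14.1% (TERRA 2) gave a difference of 13.5 percentage points, so the rise at imprinted genes was close to that over all genes. When both lists of a replicate were limited to the same number of top-ranked peaks, the difference at imprinted genes was 7.14 percentage points. The difference over all genes under this limit was not computed.

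Cdkn1c, Gnas and Peg13 had an ATRX peak in both TERRA lists and in neither scramble list, 7.14% of the imprinted genes against 3.6% of all genes. For Cdkn1c, the maternally expressed inhibitor of cyclin-dependent kinases, the TERRA 1 peak was centred 4056 bp after the TSS with 4 tags, and the TERRA 2 peak lay at -2424 bp with 12 tags. At Gnas the peaks were centred 4382 bp after the TSS with 5 tags and 2240 bp after it with 9 tags. For the noncoding RNA gene Peg13 they lay at -733 bp with 4 tags and at -2850 bp with 9 tags. In each of the 3 genes the peaks of both replicates were in different places. Their −log10 p values ranged from 2.08 to 2.84, close to the authors' p cutoff of 0.01, and none of the 3 remained with a 1 kb window, with a −log10 p of at least 5 or with equal numbers of peaks.

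The other genes with an ATRX peak near the TSS each had it in a single TERRA list, in a single scramble list, or, for Igf2, in 1 of each. The shared start of Peg10 and Sgce carried a TERRA 1 peak with 13 tags, a fold enrichment of 10.9 over input and a −log10 p of 4.20, and it overlapped an ATAC and a G4 peak of TERRA 1. At Commd1, the host gene of Zrsr1, a TERRA 1 peak with 9 tags was centred 99 bp after the TSS. Upstream of H19, a TERRA 1 peak with 7 tags lay at -3741 bp and overlapped an ATAC peak, in the stretch that holds the control region bound by CTCF. Mest had a peak in scramble 1 only, with 6 tags, and Nap1l5 and H13 in scramble 2 only, with 15 and 10 tags. No imprinted gene had an ATRX peak in all 4 lists, nor in both scramble lists and neither TERRA list (0.0802% of all genes in each case), and 25 had none in any list (65.1% of all genes).

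Over the gene regions, ATRX peaks numbered 5 in scramble 1, 17 in scramble 2, 43 in TERRA 1 and 21 in TERRA 2. Per 1000 peaks of the list this was 0.683, 1.25, 1.04 and 0.967. The imprinted regions span 2.52 Mb, or 0.923 of every 1000 bases of the genome, so the density was near that of the genome. The log2 of this ratio was higher in TERRA KD by 0.61 in replicate 1 and differed by -0.36 in replicate 2 (mean difference 0.12, exact two-sided permutation test, p = 1). The second value rested on Snrpn, which spans 468 kb as annotated and held 10 of the 17 peaks of scramble 2, against 0 in scramble 1, 3 in TERRA 1 and 1 in TERRA 2, and H3K9me3 peaks there also numbered 14 in scramble 2 against 2, 1 and 1. Leaving out Snrpn, a choice made after seeing these counts, gave a mean log2 difference of 0.67, which is given as a description because the region was left out for its scramble 2 peaks.

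By cluster, more ATRX peaks were listed in TERRA KD at 15 of 21 clusters in replicate 1, with 6 equal. In replicate 2, 10 clusters had more in TERRA KD, 6 had fewer and 5 were equal. The 6 with fewer were those of H13, Nap1l5, Rasgrf1, Dlk1, H19 and Snrpn. The whole ATRX lists also grew, from 7321 to 41384 peaks in replicate 1 and from 13652 to 21718 in replicate 2. Such counts were not made for other regions, so they have no background. The next 3 clusters are examples with more peaks in TERRA KD. The Peg3, Usp29 and Zim1 cluster had 1 peak in scramble 1, 0 in scramble 2, 6 in TERRA 1 and 3 in TERRA 2. The cluster of Mest and Copg2 had 1, 1, 4 and 3 in the same order, most of them inside Copg2, a gene for a coat protein of transport vesicles. In the Kcnq1ot1 and Cdkn1c cluster the counts were 1, 0, 6 and 2. The clusters of Nnat, Grb10 and Impact had no ATRX peak in any list.

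**Figure D2:**
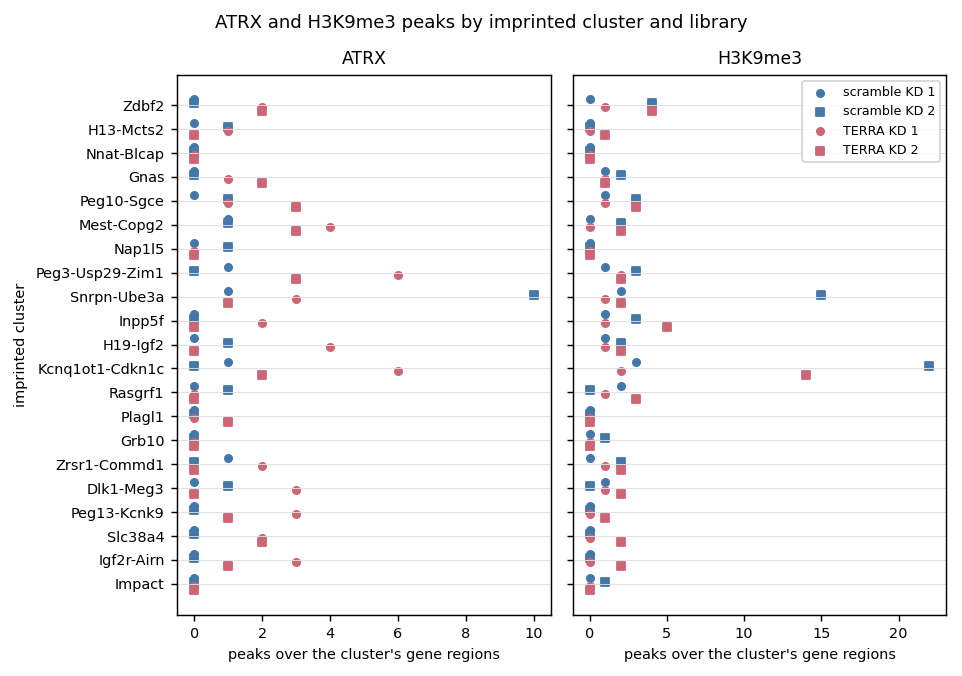
Number of ATRX peaks (left) and H3K9me3 peaks (right) over the gene regions of each of the 21 imprinted clusters, 1 point per library, blue for scramble KD, red for TERRA KD, circles for replicate 1 and squares for replicate 2. The scramble 2 points at the Snrpn to Ube3a cluster, 10 for ATRX and 15 for H3K9me3, stand apart, as do 22 and 14 H3K9me3 peaks at the Kcnq1ot1 cluster in replicate 2.

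ATRX peaks lay in 4 of the 6 recurrent H3K9me3 blocks, in scramble as well as TERRA lists. In TERRA 1, 3 ATRX peaks with 4, 9 and 4 tags overlapped the H3K9me3 peak upstream of Igf2, of which 1 lay beyond the 5 kb window, and 3 with 4 to 6 tags overlapped the Kcnq1ot1 block. In TERRA 2, 1 ATRX peak with 18 tags overlapped H3K9me3 in Peg10. In scramble 1, 1 ATRX peak with 8 tags overlapped the Gnas block past the end of the gene, and in scramble 2, 1 with 9 tags lay in the Igf2 block without overlapping an H3K9me3 peak of that list. Within the gene regions, 5 of 43 ATRX peaks overlapped H3K9me3 in TERRA 1, 1 of 21 in TERRA 2, 1 of 17 in scramble 2 and 0 of 5 in scramble 1. For the whole ATRX lists the shares were 30.2%, 16.9%, 16.4% and 21.6% in that order. ATAC peaks were overlapped by 10 of the 43 ATRX peaks in TERRA 1 and 2 of the 21 in TERRA 2, against 0 of 5 and 0 of 17 in scramble 1 and scramble 2. The whole ATRX lists overlapped ATAC peaks in 15.3% (TERRA 1), 15.7% (TERRA 2), 7.79% (scramble 1) and 3.01% (scramble 2), so the TERRA lists were also higher over the genome.

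The strongest ATRX peak over an imprinted region lay 5494 bp after the start of Rtl1, a retrotransposon-derived gene expressed from the paternal copy, in TERRA 1. It had 19 tags, a fold enrichment of 14.9 and a −log10 p of 6.91, which placed it in the top 4.48% of its list. It overlapped a G4 and an ATAC peak of TERRA 1, and no other list held an ATRX peak there. The strongest ATAC peak near this start lay at 5313 and 5317 bp in TERRA 1 and TERRA 2, with pileups of 27 and 29, and at 5407 and 5247 bp in scramble 1 and scramble 2, with pileups of 14 and 11. Pileups were not scaled between libraries.

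ATAC peaks were found at nearly all of the 42 imprinted genes in every list. Within 5 kb of the TSS, 38 of 42 genes had a peak in scramble 1, 39 in scramble 2, and 40 in each TERRA list. Shares over all genes were 70.6%, 74.8%, 73.4% and 75.8%. Among 24 other imprinted genes outside this set, the shares were 75%, 79.2%, 79.2% and 79.2%, nearer to those of all genes. The high share thus describes the 42 genes listed here. The mean was 91.7% ± 1.68 (SD, n = 2) in scramble KD and 95.2% ± 0 (SD, n = 2) in TERRA KD (exact two-sided permutation test, p = 0.33, the smallest possible). This difference of 3.57 percentage points was 2.38 with a 1 kb window or with a −log10 p of at least 5. With shared windows counted once it was 1.32, and the shares of scramble 2, TERRA 1 and TERRA 2 were all 94.7%. The difference over all genes was 1.88 percentage points. In all 4 lists, 37 genes (88.1%) had a peak, as did 68.3% of all genes. The remaining genes were Igf2, Slc22a18, Grb10, Rian and Snrpn, which at its most upstream start had none in any list (21% of all genes).

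The strength of accessibility varied widely among the genes. Mcts2, a retrogene inside H13 whose promoter is a maternal DMR, had the strongest peak in every list except TERRA 1, where Inpp5f and Ube3a ranked higher. Its peak ranked by −log10 p in the top 0.258% of scramble 1, 0.227% of scramble 2, 1.47% of TERRA 1 and 0.312% of TERRA 2. Inpp5f ranked in the top 1.896%, 0.913%, 1.18% and 0.946%. At Peg3 and Usp29 a shared peak about 1.8 kb inside Peg3 ranked in the top 1.31%, 2.08%, 2.37% and 1.25%, and Ube3a, the ubiquitin ligase gene, had 1.52%, 1.22%, 1.20% and 2.17%. At the other end, Dlk1 ranked between the top 54.4% and 76.9%, and Igf2 had a peak at its most upstream start in scramble 1 only, at the 99.3% mark of its list. Within 5 kb of the Igf2 start at 142657496, ATAC peaks numbered 2, 3, 2 and 2 in scramble 1, scramble 2, TERRA 1 and TERRA 2, and the other downstream starts also had peaks in all 4 lists. Upstream of H19 the strongest peak lay at -3332 and -3384 bp in scramble 1 and scramble 2 and at -2417 and -2389 bp in TERRA 1 and TERRA 2, with pileups of 24, 28, 21 and 26.

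Among the other genes with a germline DMR, the Kcnq1ot1 promoter had ATAC pileups of 44, 71, 56 and 64 in scramble 1, scramble 2, TERRA 1 and TERRA 2, with summits between -212 and -55 bp. Plagl1, which encodes a zinc-finger transcription factor, had pileups of 17, 29, 36 and 39, and Nnat, the neuronatin gene, had 9, 13, 16 and 16. Airn, the noncoding RNA that silences Igf2r on the paternal copy, had 17, 18, 22 and 32. Igf2r, the receptor that takes up IGF2 for degradation, had 19, 23, 12 and 16. Pileups at Plagl1, Nnat and Airn were higher in both TERRA lists and those at Igf2r lower, without scaling for the depth of the libraries.

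Rian, a noncoding RNA that hosts small nucleolar RNAs, was the only imprinted gene with an ATAC peak in both TERRA lists and neither scramble list (0.665% of all genes). Its peaks had pileups of 4 and 8 and ranked at the 99.9% and 78.6% marks of their lists, so both were weak, and at TERRA 1 and TERRA 2 their summits lay 3352 and 3955 bp after the TSS. A 1 kb window, equal numbers of peaks or a −log10 p cutoff of 5 each removed this call. None was seen in both scramble lists and neither TERRA list (0.275% of all genes).

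**Figure D3:**
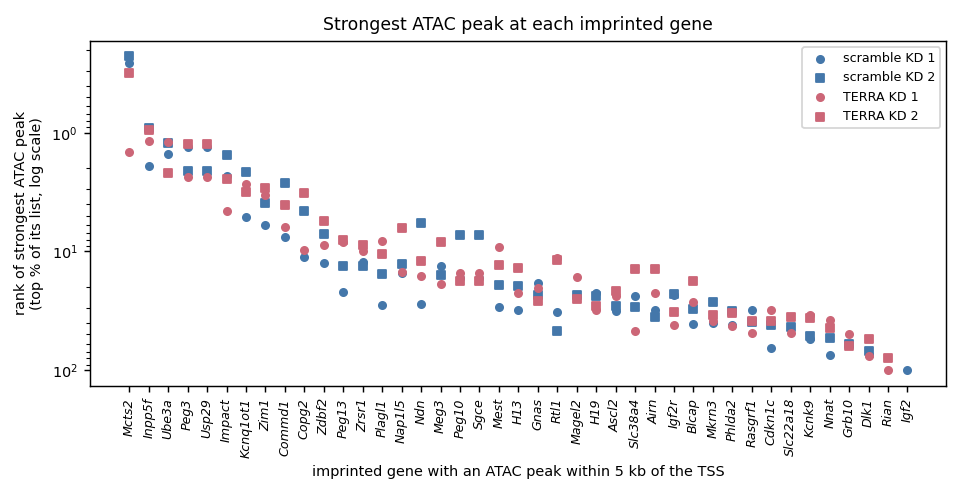
Rank of the strongest ATAC peak within 5 kb of the TSS of each imprinted gene, as the top percent of its own list on an inverted log scale, ordered by the median over libraries. Colours and symbols mark the 4 libraries. Mcts2 lies highest in every library except TERRA 1, and Dlk1, Rian and Igf2 lowest.

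G4 peaks near imprinted genes moved in opposite directions in the replicates. Within 5 kb of the TSS, 27 of 42 genes had a G4 peak in scramble 1, 37 in scramble 2, 36 in TERRA 1 and 25 in TERRA 2. Over all genes the shares were 61%, 84.4%, 68.8% and 59.6%. The share of imprinted genes was thus higher in TERRA KD by 21.4 percentage points in replicate 1 and differed by -28.6 in replicate 2 (exact two-sided permutation test over both, p = 0.667). Tags in these lists were 2961038, 24588605, 5759282 and 13127555, and both lists of a condition had the same input tag count. The part of depth and of the inputs in these shares was not tested.

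In all 4 lists, 18 imprinted genes (42.9%) had a G4 peak near the TSS, as did 37.3% of all genes. They included 5 of the 7 genes in paternally methylated domains, H19, Igf2, Dlk1, Rtl1 and Rasgrf1, and 6 of the 19 germline DMR genes. Igf2, which also carried the recurrent H3K9me3 block, had its strongest G4 peak in the top 3.57% of scramble 1, 2.88% of scramble 2, 1.02% of TERRA 1 and 1.896% of TERRA 2. Cdkn1c had peaks in the top 3.92%, 5.76% and 1.398% of scramble 1, scramble 2 and TERRA 1 and none in TERRA 2. Zrsr1, a retrogene whose promoter is a maternal DMR, was the only imprinted gene with no G4 peak in any list (8.68% of all genes), and Mcts2 had a G4 peak in scramble 2 only. No imprinted gene had a peak in both scramble lists and neither TERRA list (2.95% of all genes), nor the reverse (0.306%). With a −log10 p of at least 5, Zim1, Mest and Blcap had a peak in both scramble lists only, 3 of 42 against 4.39% of all genes.

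A G4 sequence motif, 4 runs of at least 3 G with loops of 1 to 7 bases on either strand, was present in 14 of the 51 imprinted promoters of 300 bases, 27.5% against 18.6% of all promoters. It was in 5 of 26 promoters of germline DMR genes (19.2%) and in 9 of 25 of the other imprinted genes (36%). In the 10 kb windows, 36 of 42 imprinted genes and 87.7% of all genes had at least 1 such motif.

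**Figure D4:**
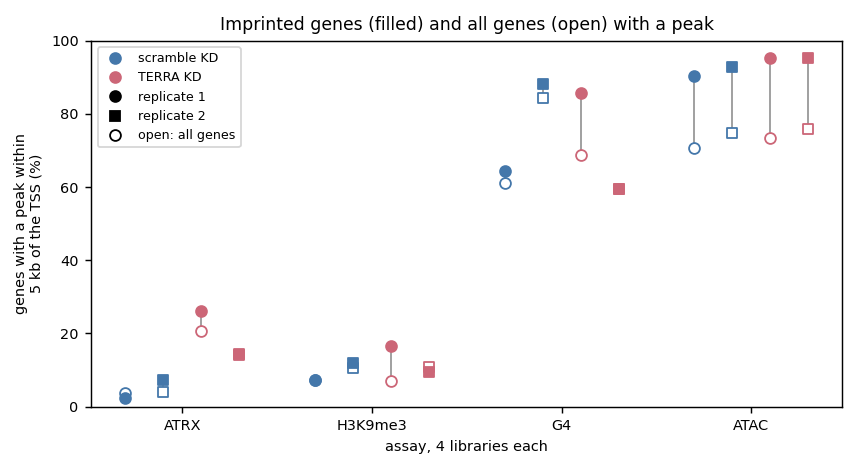
Percent of the 42 imprinted genes (filled) and of all 26182 genes (open) with a peak within 5 kb of the TSS, for the 4 libraries of each assay in the order scramble 1, scramble 2, TERRA 1 and TERRA 2, blue for scramble KD, red for TERRA KD, circles for replicate 1 and squares for replicate 2. ATAC shares of imprinted genes lie above those of all genes in every library, from 90.5% to 95.2%, and ATRX shares rise together with those of all genes in TERRA KD.

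**Figure D5:**
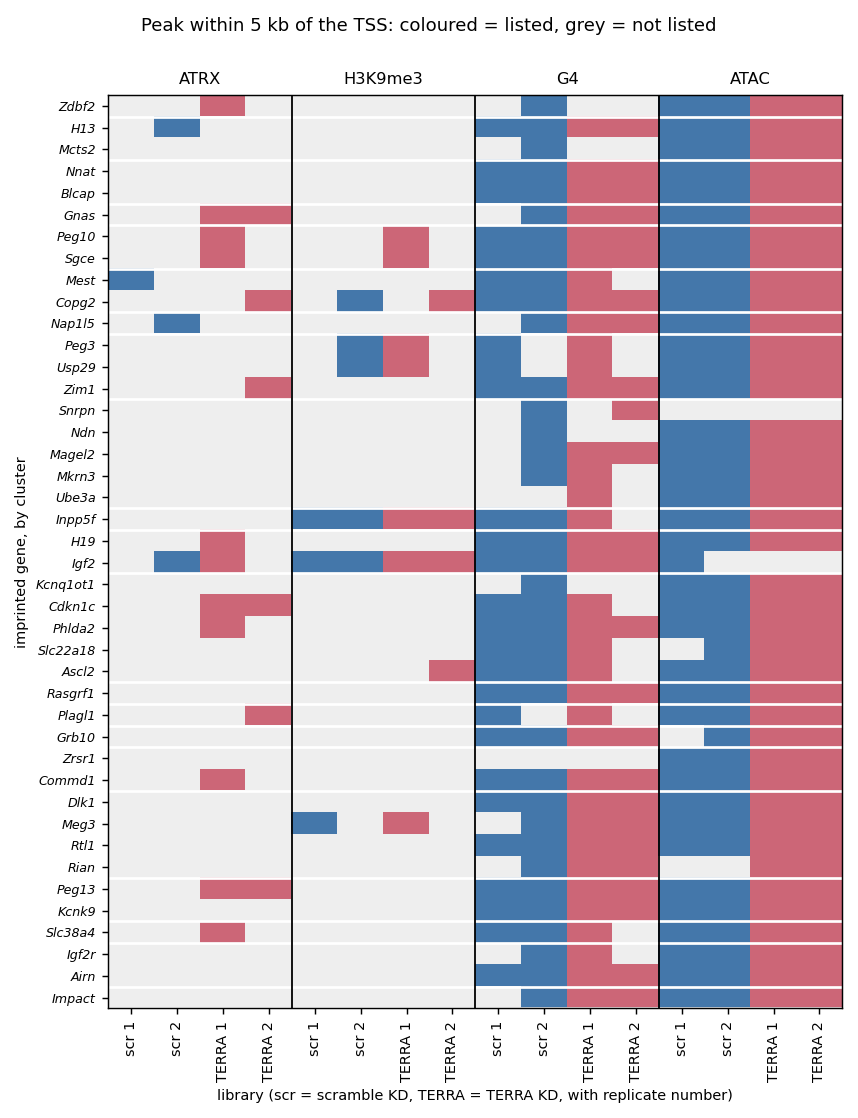
Presence of a peak within 5 kb of the TSS for each of the 42 imprinted genes (rows, in clusters separated by white lines) in each of the 16 libraries (columns), blue where scramble KD lists held a peak, red where TERRA KD lists did and grey where none was listed. ATAC columns are nearly filled, G4 columns vary by library, and H3K9me3 rows filled in all 4 libraries are those of Igf2 and Inpp5f.

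Other genes of the imprinting system were examined in the same way. Of 24 other imprinted genes, 0 had an ATRX peak near the TSS in scramble 1, 2 in scramble 2, 6 in TERRA 1 and 6 in TERRA 2, and none had a peak in both TERRA lists and neither scramble list. Among 12 factors that maintain imprints, the ATRX counts were 2, 1, 4 and 4. Over all genes the ATRX shares were 3.83%, 3.98%, 20.7% and 14.1%. Daxx, which encodes the partner of ATRX, was the only factor with an ATRX peak in both TERRA lists and neither scramble list (3.6% of all genes), with 6 and 10 tags. Zfp445 was the only factor with an H3K9me3 peak in all 4 lists (2.85% of all genes), with 383, 15, 533 and 8 tags in scramble 1, scramble 2, TERRA 1 and TERRA 2. Dnmt3b, a de novo DNA methyltransferase gene, had a G4 peak in both scramble lists, with 7 and 69 tags, and in neither TERRA list (2.95% of all genes).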

How the data were processed

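ChIP-seq for ATRX, H3K9me3 and G4 and ATAC-seq were performed on ES cells with 2 replicates per condition. Reads were trimmed with Trim Galore 0.5.0 and aligned with Bowtie2 2.3.4.1 to mm10 (GRCm38), per the labels. The authors called peaks in each library with MACS 1.4.3 (ATRX and H3K9me3), 1.4.2 (G4) or 2.2.7.1 (ATAC, without input) at p 0.01. The deposited lists give the tag count of each peak (raw, not scaled), a score (the −log10 p times a constant) and the fold enrichment over input. For ATAC the authors gave pileup signal, −log10 p and fold enrichment over the local background.

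Here, lists were overlapped by at least 1 base with RefSeq curated genes of the same build, in Python 3.11.15 (numpy 2.4.6, pandas 2.3.3). Scores were divided to give −log10 p, and ranks follow −log10 p within a list. Tags and pileups were not compared between libraries by a test. Conditions were compared by the share of genes with a peak, with an exact two-sided permutation test over samples. The p-values measure only the spread between these libraries. Overlap functions were tested on simulated peaks. The input samples were not analysed here. The genes, lists and tests were chosen with earlier results of these data known.

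Values are given for genes with an H3K9me3 peak near the TSS in all 4 lists, for genes with a peak in both lists of a condition and neither of the other, and for H19, Igf2, Kcnq1ot1, Peg3, Snrpn, Mest, Peg10, Nnat, Plagl1, Meg3, Airn, Igf2r and Cdkn1c. Other genes named in the text were chosen after their values were seen.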

Additional observations from a re-analysis of the deposited data

How the results depend on the processing

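No result could pass a threshold of 0.05 with 2 libraries against 2, so alternatives are read by direction and size. The mean paired difference with replicate number as a block equals the unpaired one: 15.5 percentage points for ATRX near the TSS (exact sign-flip p = 0.5), 3.57 for H3K9me3 (p = 1), -3.57 for G4 (p = 1) and 3.57 for ATAC (p = 0.5). The labels link same-numbered libraries only by that number. Over stretches of 1 Mb, deviations of same-numbered libraries correlated by -0.04 (ATRX), 0.30 (H3K9me3), 0.44 (G4) and 0.15 (ATAC). For H3K9me3 and G4, same-numbered libraries thus shared part of their deviations, and H3K9me3 peak lengths also went with the replicate number. The block changed no call.

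The H3K9me3 difference near the TSS turned to -1.19 with a 1 kb window and with the peak centre inside the window, and ranged from -2.38 to 9.52 when a replicate was left out. Leaving out a replicate gave 7.14 to 23.8 for ATRX, -28.6 to 21.4 for G4 and 2.38 to 4.76 for ATAC, and -0.36 to 0.61 for the log2 ATRX ratio and -0.20 to 0.69 for the H3K9me3 coverage. With −log10 p of at least 5 no ATRX peak near a TSS remained (difference 0), and the ATRX ratio had no value. ATRX genes gained numbered 3, and 0 with −log10 p of at least 5, a 1 kb window or equal numbers of peaks, and 6 to 11 when a replicate was left out. G4 genes lost numbered 0, 3 with −log10 p of at least 5, 1 (Phlda2) with a 1 kb window, and 0 to 12 without a replicate. With any curated start, Snrpn had H3K9me3 in both scramble lists and neither TERRA list. Apart from 4.39% for G4 with −log10 p of at least 5, shares of all genes were not computed under these settings. These counts thus have no background. For all genes, the ATRX share was higher in TERRA KD by 16.8 percentage points in replicate 1 and 10.1 in replicate 2. The G4 share was higher by 7.78 in replicate 1 and differed by -24.8 in replicate 2. Counting shared windows once and leaving out Snrpn were added after seeing the data. The cause of these changes was not tested.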
